A study of Mus musculus with 7 samples.

Results

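The adrenergic and muscarinic signaling genes described here are 9 genes of the autonomic control of the heart, chosen by symbol from the 17404 genes of the expression table. They are the beta-adrenergic receptors Adrb1 and Adrb3, the alpha-1-adrenergic receptors Adra1a, Adra1b and Adra1d, the muscarinic receptor Chrm2, the adenylyl cyclases Adcy5 and Adcy6, and the receptor kinase Grk5. All 9 were in the table, and 7 of them had a high enough level to be compared between strains. RNA-Seq was done on ventricles of neonatal mice at postnatal day 4 (P4), with 3 libraries from BALB/cByJ and 4 from BALB/cJ, sister strains of inbred albino mice. The mice were untreated and carried no transgene. Each library was made from a pool of 3 to 4 hearts by the labels, although another passage of the study gives a larger pool, and pups of both sexes could enter a pool. BALB/cByJ lacks most of Cyth1 through a natural deletion and BALB/cJ carries a retroviral insertion in Zhx2, so the strains differ at several known and unknown loci and not at 1 gene.

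Norepinephrine released by sympathetic nerves, and epinephrine from the adrenal gland, bind beta-adrenergic receptors on cardiomyocytes. These activate the stimulatory G protein and adenylyl cyclase, and the cyclic AMP so formed drives protein kinase A (PKA), which raises the rate and force of the beat. Alpha-1 receptors instead couple to Gq and phospholipase C. Acetylcholine from the vagus nerve binds the M2 receptor, product of Chrm2, which couples to inhibitory G proteins, lowers cyclase activity and opens a potassium channel. Receptor kinases phosphorylate receptors in use and so quiet them.

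The expression values are normalized for depth and transcript length, so levels of different genes can be set side by side. The sources used here do not say whether they are FPKM or TPM, and the number of reads per library is unknown. The values of all genes summed to between 543023 and 628977 per library, and 11815 to 11979 genes had a value of at least 1. Cyth1 was at 0.10 to 0.19 in the BALB/cByJ libraries and at 25.77 to 26.98 in the BALB/cJ libraries, as the strain labels require. The summed value of 4 Y-linked genes was 80.2 to 128 in BALB/cByJ pools and 0.04 to 37.6 in BALB/cJ pools. The strains thus did not overlap in Y-linked RNA. Differences between the strains can therefore not be fully told apart from differences in the sex make-up of the pools. The 10 cardiomyocyte markers were all detected, with a summed level of 42585 to 56076. Nothing in the labels says that pools came from separate litters, so p-values measure the spread between these pools.

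Of the 7 genes compared, 0 differed between the strains at an adjusted p under 0.05 from limma, and 1, Adcy6, had an unadjusted p under 0.05. Over all 12715 genes tested, 1.65% were called in either direction, 0.771% higher and 0.881% lower in BALB/cByJ, and 18.3% had an unadjusted p under 0.05. With quantile normalization the calls over all genes were 108 higher and 49 lower, and with TMM scaling, a trimmed-mean rescaling of libraries, they were 140 and 58, against 98 and 112 on the values as deposited. None of the 7 genes compared was called in any of 16 alternative settings that tested it, which were 15 for Adra1d. Adrb3 and Adra1a were tested only without the filter and were not called there. Fold changes are differences of log2(value + 1), positive where BALB/cByJ was higher, and the added 1 understates the change of low genes. SE is the standard error of this difference, and each adjusted p comes from limma.

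The beta-1 receptor gene Adrb1, the main beta-adrenergic receptor of ventricular cardiomyocytes, lay at a similar level in every library. Its value was 11.97, 10.93 and 9.61 in BALB/cByJ libraries 1 to 3 and 10.25, 10.55, 12.27 and 10.79 in BALB/cJ libraries 1 to 4. The strains overlapped along most of their range. The mean was 10.8 ± 1.18 (SD, n = 3) against 11.0 ± 0.898 (SD, n = 4), a difference of -0.02 on the log2 scale (SE 0.11, limma adjusted p = 0.949). The 95% interval ran from 0.839-fold to 1.16-fold, so larger differences in either direction lie outside it. The direction turned with quantile normalization and TMM scaling (0.08 and 0.06). Adrb1 is a short gene on chromosome 19, chr19:56722117-56725150 in the mm10 build (GRCm38).

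Adrb3, the beta-3 receptor best known from brown and white fat, was listed at 0.12, 0 and 0.13 in BALB/cByJ and at 0.03, 0, 0.09 and 0 in BALB/cJ. With 3 of 7 libraries at 0 it was too low for a comparison. Of 7 adipocyte markers in the table, 5 stayed under 0.5 in every library, among them Ucp1, the uncoupling protein of brown fat, Adipoq and Plin1. The other 2 were detected in every library, Fabp4 at 1065 to 1891 and Cidea at 28.06 to 43.78. The summed level of the list was carried by Fabp4. It ranged from 1285 to 1934 in BALB/cByJ and from 1100 to 1667 in BALB/cJ.

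Among alpha-1 receptors, Adra1b supplied nearly all of the signal. The alpha-1B receptor gene was at 12.07, 15.01 and 12.62 in BALB/cByJ and at 14.67, 12.87, 18.36 and 14.17 in BALB/cJ, where library 3 was the highest. The strains overlapped, at a log2 fold change of -0.16 (SE 0.13, 95% interval -0.43 to 0.10, limma adjusted p = 0.497). Adra1d, the alpha-1D receptor known from vascular smooth muscle, was at 1.16, 2.18 and 1.37 in BALB/cByJ and at 1.68, 1.72, 1.66 and 0.96 in BALB/cJ. Each strain thus held 1 library that lay away from its others, library 2 of BALB/cByJ above and library 4 of BALB/cJ below. The log2 fold change of Adra1d was 0.03 (SE 0.16, 95% interval -0.31 to 0.37, limma adjusted p = 0.94), and it was -0.13 without BALB/cByJ 2 and -0.08 without BALB/cJ 4. Adra1a, the alpha-1A receptor, was listed at 0.16, 0.08 and 0.12 in BALB/cByJ and at 0.11, 0.1, 0.13 and 0.09 in BALB/cJ, too low for a comparison. Of the summed alpha-1 receptor value, Adra1b made up 86.9% to 93.1% and Adra1d 6.31% to 12.6% across the 7 libraries.

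Chrm2, the muscarinic receptor through which the vagus slows the heart, was the most abundant receptor gene of the 6 listed. Its value was 14.51, 18.39 and 20.18 in BALB/cByJ and 19.15, 18.52, 20.05 and 22.05 in BALB/cJ. Library 1 of BALB/cByJ was the lowest of all, and the other BALB/cByJ libraries lay within or just below the BALB/cJ range. The mean was 17.7 ± 2.90 (SD, n = 3) against 19.9 ± 1.54 (SD, n = 4), a difference of -0.17 on the log2 scale (SE 0.12, 95% interval -0.43 to 0.08, limma adjusted p = 0.448). Chrm2 lies on chromosome 6 of mm10, chr6:36387991-36528638. The 6 other alpha-2 and muscarinic receptor genes in the table, Adra2a, Adra2b, Adra2c, Chrm1, Chrm3 and Chrm4, never exceeded 0.44 in any library, so none was compared.

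**Figure D1:**
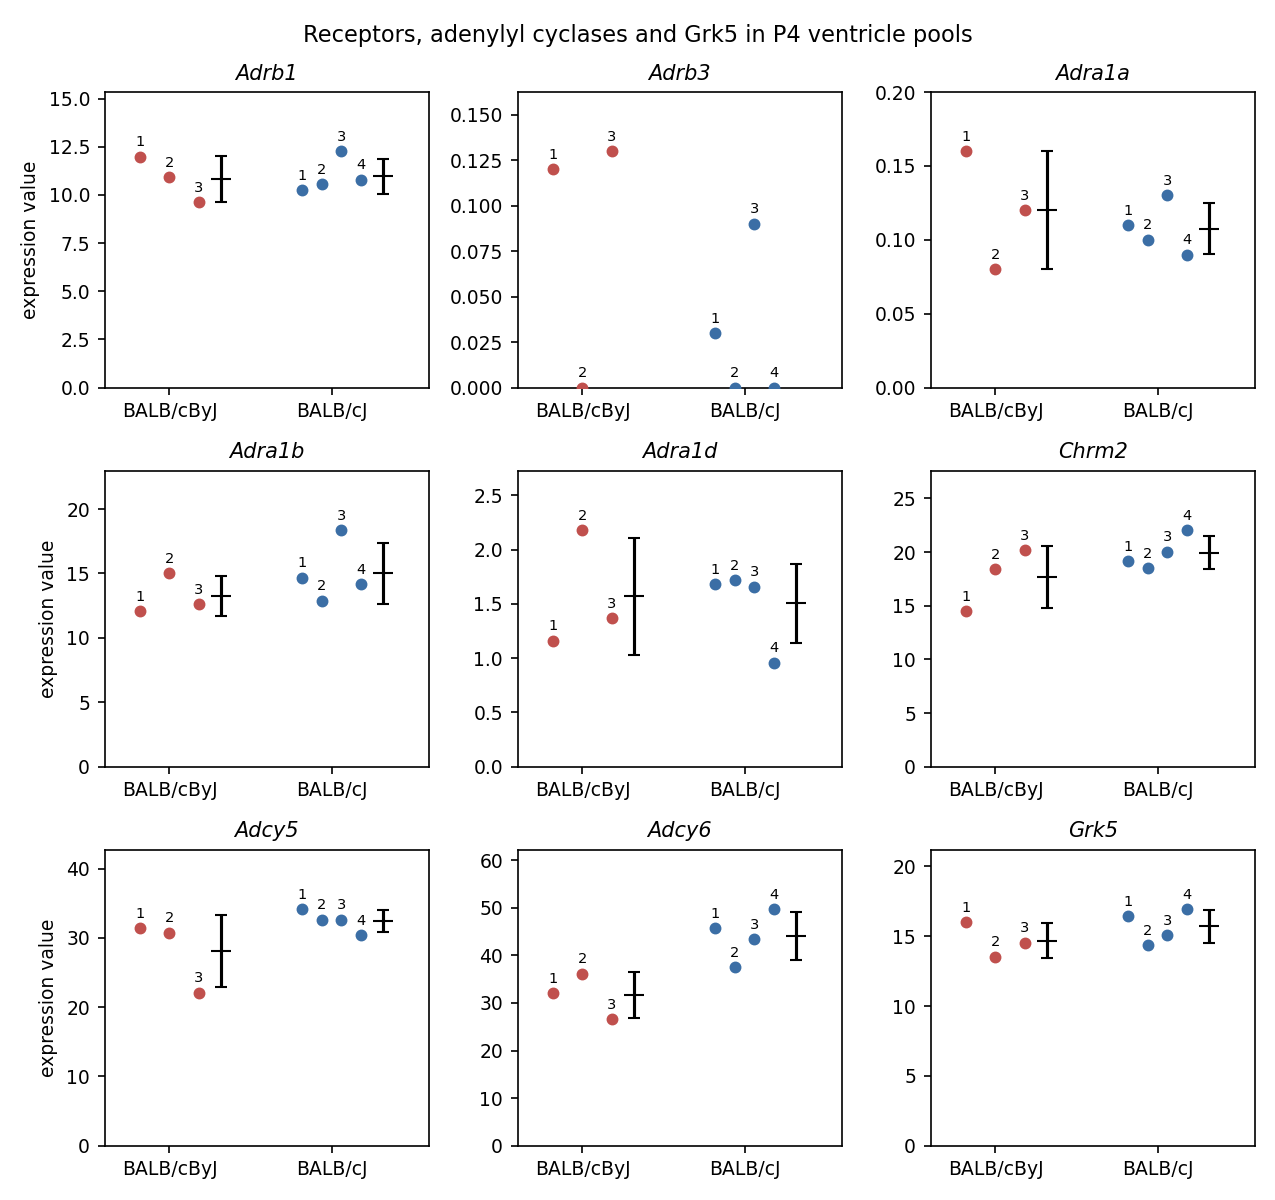
Expression value (depth- and length-normalized, each panel with its own linear axis from 0) of the 9 genes in each library of BALB/cByJ (red, n = 3) and BALB/cJ (blue, n = 4). Numbers are library numbers and bars give the mean and SD, left out for Adrb3, which was listed at 0 in 3 libraries. Only for Adcy6 do the strains not overlap, with 26.56 to 36.14 against 37.47 to 49.73.

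Adenylyl cyclases 5 and 6 are the calcium-inhibited isoforms that make most cyclic AMP in cardiomyocytes. Adcy6 was at 32.11, 36.14 and 26.56 in BALB/cByJ and at 45.7, 37.47, 43.42 and 49.73 in BALB/cJ. Every BALB/cByJ library lay below every BALB/cJ library, with library 2 of each strain at the gap between them. Adcy6 was 1 of 7 genes compared here in which the strains did not overlap, and 17.0% of all genes tested did the same. The mean was 31.6 ± 4.81 (SD, n = 3) against 44.1 ± 5.12 (SD, n = 4), a difference of -0.47 on the log2 scale (SE 0.12, limma adjusted p = 0.0722). On this scale BALB/cJ was 1.39-fold higher, with a 95% interval from 1.16-fold to 1.66-fold. Its unadjusted p was 0.0017, and the adjusted p ranged from 0.0511 without BALB/cJ 2 to 0.324 with the replicate number as a block, so the difference did not pass the test in any setting. Adcy6 lies on chromosome 15 of mm10, chr15:98589978-98610287.

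Adcy5 was at 31.42, 30.73 and 22.06 in BALB/cByJ and at 34.14, 32.6, 32.59 and 30.36 in BALB/cJ. Library 3 of BALB/cByJ was the lowest for Adcy5 as it was for Adcy6, whereas the other BALB/cByJ libraries lay at the lower end of the BALB/cJ range. The mean was 28.1 ± 5.22 (SD, n = 3) against 32.4 ± 1.56 (SD, n = 4), a difference of -0.22 on the log2 scale (SE 0.12, 95% interval -0.48 to 0.04, limma adjusted p = 0.352). The ratio of Adcy6 to Adcy5 within a library does not depend on how that library was scaled. It was 1.02, 1.18 and 1.20 in BALB/cByJ and 1.34, 1.15, 1.33 and 1.64 in BALB/cJ, so Adcy6 exceeded Adcy5 in all 7 libraries and the ratios of the strains overlapped through BALB/cJ 2.

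**Figure D2:**
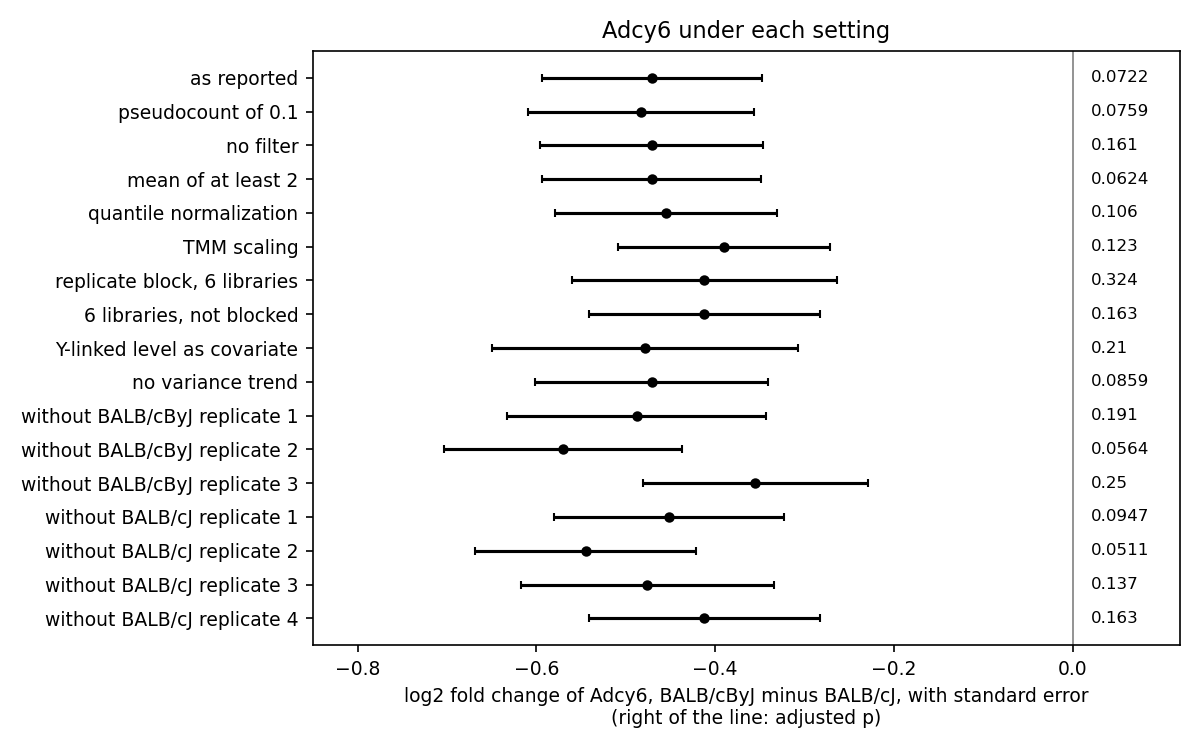
Log2 fold change of Adcy6, BALB/cByJ minus BALB/cJ (x axis), under each setting (y axis), with bars for the standard error and the adjusted p from limma printed right of the line at 0. All 17 values are below 0, and the smallest adjusted p, without BALB/cJ 2, is 0.0511.

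Some marker lists of other cell types also separated the strains, and their part in the Adcy6 values was not tested. The sums of the fibroblast, endothelial, macrophage and leukocyte, and epicardium lists overlapped between the strains. That of 4 cholinergic neuron markers in the table, carried by Stmn2, was higher in BALB/cByJ, at 4.17 to 5.68 against 2.83 to 4.07. The summed level of 8 smooth muscle and pericyte markers was 568 to 649 in BALB/cByJ and 826 to 1208 in BALB/cJ. Of the 8, 2, Acta2 and Cnn1, were called lower in BALB/cByJ, and the others were not called. Acta2, at a mean of 326 against 650, supplied much of that sum, whereas Tagln was at 19.6 against 18.5. The sum of 7 erythroid markers in the table, carried by Hba-a1 and Hba-a2, was 4347 to 5375 against 6360 to 14579. That of 7 conduction-cell markers, carried mostly by Gja5, was 11.7 to 13.6 against 13.8 to 17.2. Of its tested markers, Gja5 and Cntn2 did not overlap between the strains, whereas Hcn4 and Tbx3 did. The sum of 6 Schwann cell markers was 3.93 to 4.87 against 5.20 to 5.79. Of the tested erythroid, conduction-cell and Schwann cell markers, 0 were called by limma. The summed level of the 10 cardiomyocyte markers, carried mostly by Myl2 and a few other abundant genes, was 48862 to 56076 in BALB/cByJ and 42585 to 48857 in BALB/cJ, so the ranges nearly touched. Of the 10, 0 were called by limma, and their fold changes lay on both sides of 0, from -0.36 for Myh7 to 0.27 for Tnni3. In bulk tissue, fewer cells of a type and less RNA per cell cannot be told apart. In a fit with the Y-linked sum as a covariate the log2 fold change of Adcy6 was -0.48 (SE 0.17, limma adjusted p = 0.21). That sum did not overlap between the strains, so this fit is less precise and cannot tell strain from the sex make-up of the pools.

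Grk5 encodes a receptor kinase abundant in heart, which phosphorylates beta-adrenergic receptors in use and can also act in the nucleus. It was the steadiest of the 9 genes in BALB/cByJ, at 15.99, 13.52 and 14.53, and close to that in BALB/cJ, at 16.42, 14.34, 15.09 and 16.94. The libraries of the strains were interleaved. The log2 fold change was -0.09 (SE 0.11, 95% interval -0.32 to 0.13, limma adjusted p = 0.673). The coefficient of variation of Grk5 was 8.46% in BALB/cByJ and 7.61% in BALB/cJ, whereas that of Adra1d was 34.3% and 24.2%.

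**Figure D3:**
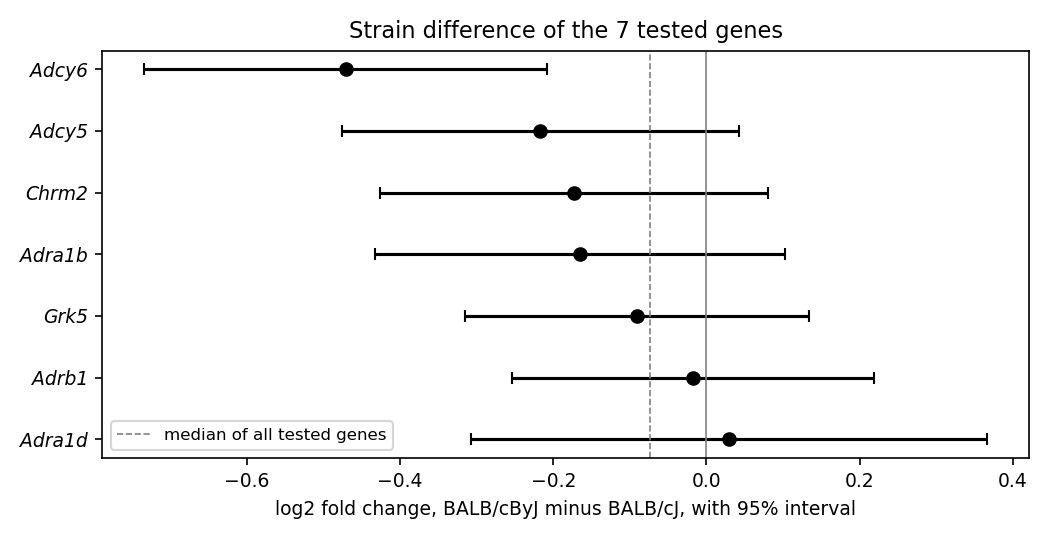
Log2 fold change, BALB/cByJ minus BALB/cJ (x axis), of the 7 genes compared (y axis), with 95% intervals from limma. The interval of Adcy6, -0.73 to -0.21, lies below 0, those of the other 6 genes hold 0, and the dashed line marks the median of all 12715 genes tested, -0.07.

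Of the 7 genes, 6 had a fold change below 0, and the values ran from -0.47 to 0.03 with a median of -0.16. Over all genes tested the median was -0.07 and 65.2% were below 0, so a value slightly below 0 was the rule on the values as deposited. With TMM scaling, where the median of all genes was close to 0, 5 of the 7 were below 0 and their median was -0.09.

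By mean level over the 7 libraries the order was Adcy6 (38.7), Adcy5 (30.6), Chrm2 (19.0), Grk5 (15.3), Adra1b (14.3), Adrb1 (10.9), Adra1d (1.53), Adra1a (0.113) and Adrb3 (0.0529). The ranges of Adcy5 and Chrm2 did not overlap over the libraries, nor did those of Adrb1 and Adra1d or of Adra1d and Adra1a. Other neighbors in the order overlapped in range, although Adcy6 lay above Adcy5, and Adra1b above Adrb1, in 7 of 7 libraries when compared within a library. Chrm2 lay above Grk5 in 6 libraries and Grk5 above Adra1b in 5. Within a library Chrm2 was 1.21 to 2.10 times Adrb1 in BALB/cByJ and 1.63 to 2.04 times Adrb1 in BALB/cJ. The ratio was lowest in BALB/cByJ 1, the library with the lowest Chrm2 value.

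Among 8802 genes with a mean value of at least 5, the genes whose pattern over the 7 libraries was most like that of Adcy6 were Srgap2 and Arl10, each with a Pearson's r of 0.992 on the log2 scale. For Adcy5 they were Nfic (0.989) and Pex14 (0.981), for Chrm2 Smc4 and Tmem39a (both 0.994), and for Adrb1 Sh2b3 and Smtnl2 (both 0.982). For Adra1b they were Jun (0.956) and Gtf2i (0.955), for Grk5 Mllt10 (0.960) and Hdac7 (0.919), and for Adra1d, among 8803 genes, Mrpl38 (0.958) and Epn3 (0.942). With 7 points and so many genes, high values of r arise readily, so these are given as a description only. None of these 14 genes was called between the strains by limma.

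The other genes of the pathway were taken from 14 lists of 182 genes by role, of which 142 were tested. Of these, 3 were higher and 2 were lower in BALB/cByJ (3.52%, against 1.65% of all genes), and 23.2% had an unadjusted p under 0.05, against 18.3% of all genes. The 5 called genes were spread over 5 lists. They were Rgs6 and Colq, lower in BALB/cByJ, and Gnb3, Maob and Nr4a1, higher.

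**Figure D4:**
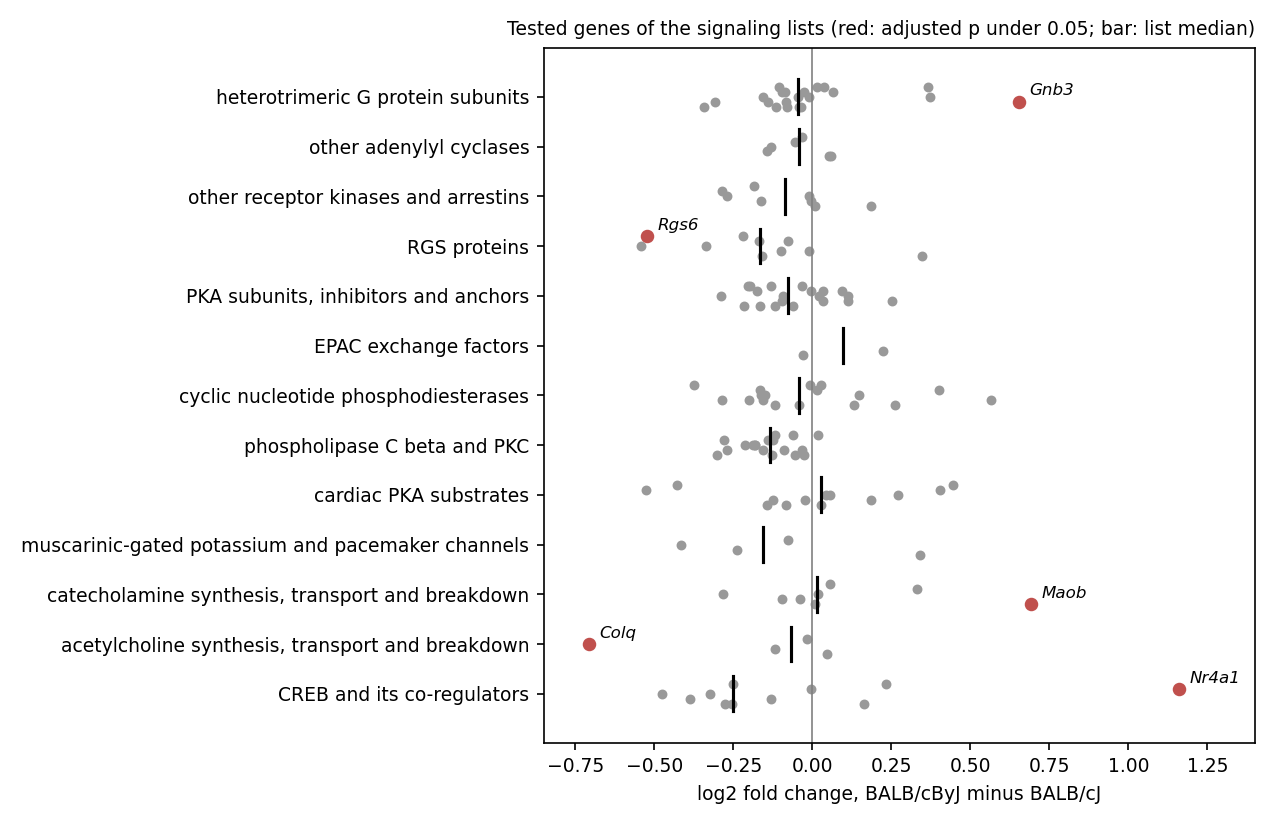
Log2 fold change, BALB/cByJ minus BALB/cJ (x axis), of every tested gene in 13 signaling lists (y axis), 1 point a gene. Red points are the 5 called genes, and the vertical bar is the median of each list, which lay between -0.25 and 0.10.

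RGS proteins speed up the switching off of G proteins, and Rgs6, whose product in mouse heart limits signaling from the M2 receptor, was lower in BALB/cByJ. Rgs6 was at 4.51, 4.19 and 4.22 in BALB/cByJ and at 6.79, 6.07, 7.17 and 6.51 in BALB/cJ. The strains were clearly apart, with little spread within each. Its log2 fold change was -0.52 (SE 0.11, limma adjusted p = 0.0247). Leaving out any BALB/cByJ library ended the call (adjusted p = 0.0703, 0.0658 and 0.0939 without libraries 1 to 3), as did leaving out library 3 or 4 of BALB/cJ (0.0868 and 0.0577), and 6 of 16 alternatives held it. Of 10 tested RGS genes, 9 were not called. Rgs4, another regulator of Gi and Gq, was at 3.13, 5.13 and 4.67 against 6.28, 7.57, 5.94 and 6.82, with the strains apart (log2 fold change -0.54, limma adjusted p = 0.0699). Rgs12 differed by -0.34 and Rgs2 by 0.35 (limma adjusted p = 0.114 and 0.251).

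The M2 receptor opens a channel built from the subunits encoded by Kcnj3 and Kcnj5. Kcnj3 was at 2.24, 2.41 and 1.92 in BALB/cByJ and at 3.35, 3.29, 2.91 and 3.45 in BALB/cJ. The strains did not overlap, but the difference of -0.42 on the log2 scale did not pass (SE 0.11, limma adjusted p = 0.0855). Kcnj5 was more abundant, at 20.95 to 28.10 over the libraries, and differed by -0.08 (limma adjusted p = 0.734). The pacemaker channel genes Hcn2 and Hcn4 differed by 0.34 and -0.24 (limma adjusted p = 0.257 and 0.398). Thus 0 of 4 tested channel genes were called by limma, and 2, Kcnj3 and Hcn2, had an unadjusted p under 0.05.

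On the cholinergic side, Colq, which encodes the collagen tail that anchors acetylcholinesterase, was lower in BALB/cByJ, at 3.15, 5.5 and 3.88 against 7.6, 7.97, 7.28 and 6.44. The log2 fold change was -0.71 (SE 0.14, limma adjusted p = 0.0231). It did not pass when library 1 or 3 of BALB/cByJ (adjusted p = 0.122 and 0.113) or library 2 of BALB/cJ (0.0543) was left out, and 9 of 16 alternatives held the call. The 3 others tested were not called, among them Ache, acetylcholinesterase itself, at 0.92 to 1.5, and Bche, butyrylcholinesterase, at 11.56 to 14.52.

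Among genes of catecholamine handling, Maob, an X-linked mitochondrial monoamine oxidase, was higher in BALB/cByJ, at 6.74, 7.43 and 9.53 against 5.02, 4.42, 4.69 and 3.79. The log2 fold change was 0.69 (SE 0.13, limma adjusted p = 0.0168). Leaving out BALB/cByJ 3 (adjusted p = 0.0923) or BALB/cJ 4 (0.0528) ended the call, which 10 of 16 alternatives held. The 7 others tested were not called. Ddc, the decarboxylase that makes dopamine, was at 92.18 to 127.35 in BALB/cByJ and 80.44 to 105.58 in BALB/cJ (log2 fold change 0.33, limma adjusted p = 0.197), whereas Th, the first enzyme of the same route and a defining marker of sympathetic neurons, was at 0.06, 0.09 and 0 in BALB/cByJ and listed at 0 in all BALB/cJ libraries. Slc6a2, the norepinephrine transporter, and Prph, peripherin, both markers of sympathetic neurons, also stayed under 0.5 in every library. Other sympathetic neuron markers were detected in every library. Dbh, the enzyme that makes norepinephrine, at 1.41 to 2.43, and Slc18a2, at 1.68 to 2.75, overlapped between the strains. So did Npy, at 2.81 to 7.06, and Gap43, at 1.56 to 4.23. Stmn2 did not overlap, at 5.19, 3.86 and 4.58 in BALB/cByJ against 2.69, 3.75, 3.63 and 3.51 in BALB/cJ. Its log2 fold change was 0.33, and it was not called (limma adjusted p = 0.192).

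Several G protein genes were abundant. Gnas, the stimulatory alpha subunit, was at 1113 to 1336, Gnai2, the main inhibitory alpha subunit here, at 240.05 to 283.84, Gnaq at 10.71 to 13.42, and Gnb5, partner of Rgs6, at 15.72 to 18.43. These 4 were named for their role, outside the rule for named genes. Of 21 tested subunits, 1 was called. Gnb3, a beta subunit best known from retina, was at 2.05, 2.06 and 1.85 in BALB/cByJ and at 0.66, 0.97, 0.97 and 1.02 in BALB/cJ (log2 fold change 0.65, SE 0.12, limma adjusted p = 0.0154). Gnb3 was among genes picked by the study from these same libraries, so its call is not independent evidence. Without library 1 or 2 of BALB/cByJ it did not pass (adjusted p = 0.0683 and 0.0526), and 11 of 15 alternatives held it. Gng7, Gng2 and Gnao1 differed by 0.36, 0.37 and -0.31 (limma adjusted p = 0.119, 0.156 and 0.145).

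**Figure D5:**
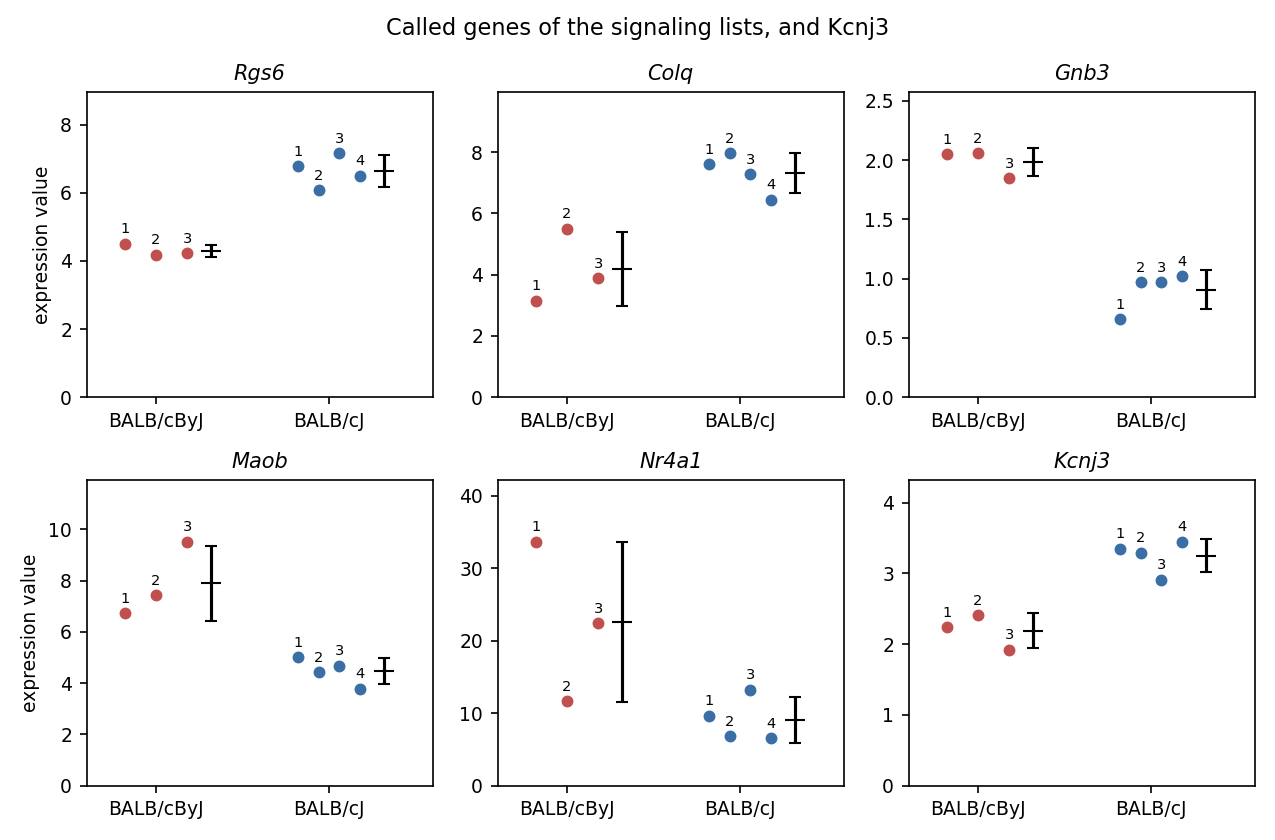
Expression value (linear axis from 0) of the 5 called genes of the signaling lists, and of Kcnj3, which was not called, in each library of BALB/cByJ (red, n = 3) and BALB/cJ (blue, n = 4), with mean and SD. The strains are apart in all panels but that of Nr4a1, in which BALB/cByJ 2 (11.68) lies below BALB/cJ 3 (13.23).

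Downstream of cyclic AMP, Nr4a1, an orphan nuclear receptor gene that CREB induces quickly after a stimulus, was higher in BALB/cByJ but varied widely, at 33.7, 11.68 and 22.4 against 9.65, 6.85, 13.23 and 6.52. The log2 fold change was 1.16 (SE 0.27, limma adjusted p = 0.045). It did not pass without library 1 or 3 of BALB/cByJ (adjusted p = 0.205 and 0.189) or without library 1, 2 or 4 of BALB/cJ (0.0539, 0.0969 and 0.128), and 5 of 16 alternatives held the call. The other 10 tested genes of the CREB list were not called, and its median was -0.25, against -0.07 over all genes. The CREB coactivators Ep300, Crtc3 and Crebbp differed by -0.48, -0.39 and -0.32 (limma adjusted p = 0.0699, 0.0903 and 0.174), each with the strains apart, and Ep300 passed in 1 of 16 alternatives (0.0397). The Y-linked sums of the strains did not overlap, so adding that sum to the fit widened the errors (SE of Gnb3 0.16, against 0.12). In such a fit, strain and the sex make-up of the pools cannot be told apart. With the Y-linked sum in the fit, 0 of the 5 calls remained, although the fold changes kept their direction. They were 0.86 for Maob (limma adjusted p = 0.0599), 1.22 for Nr4a1 (0.19), -0.51 for Rgs6 (0.17), -0.60 for Colq (0.199) and 0.48 for Gnb3 (0.199).

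The remaining lists held no called gene by limma. Of 6 other tested genes of adenylyl cyclases and their associated proteins, 0 had an unadjusted p under 0.05, and Adcy4, the endothelial cyclase, was at 7.14 to 9.19. Of 8 other receptor kinases and arrestins, 1 had an unadjusted p under 0.05. This was Grk2, the best known kinase of beta-adrenergic receptors, at 19.61, 20.50 and 18.56 against 23.83, 25.50, 24.35 and 22.63 (log2 fold change -0.29, limma adjusted p = 0.141). Of 20 PKA subunits, inhibitors and anchors, 1 had an unadjusted p under 0.05, Akap2 (-0.22, limma adjusted p = 0.241), and Prkaca, the main catalytic subunit, was at 153.36 to 179.53 in BALB/cByJ and 185.44 to 202.82 in BALB/cJ (-0.20, limma adjusted p = 0.323).

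Of 17 tested phosphodiesterases, which break down cyclic nucleotides, 4 had an unadjusted p under 0.05. Pde1c was at 17.96, 17.50 and 17.85 against 12.50, 12.16, 13.42 and 14.96 (0.40, limma adjusted p = 0.0699), and passed with quantile normalization (0.0317) and with TMM scaling (0.0263). Pde1a (0.57) passed without BALB/cJ 3 (0.0188), against 0.121 with all libraries, and Pde8a (-0.38) and Pde5a (-0.29) did not pass (limma adjusted p = 0.163 and 0.18). Of 18 genes of phospholipase C beta, protein kinase C and the IP3 receptors, 2 had an unadjusted p under 0.05, Itpr1 (-0.30) and Prkd2 (-0.27), with an adjusted p of 0.219 and 0.235 from limma.

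Of 13 cardiac PKA substrates, 4 had an unadjusted p under 0.05, 2 in each direction. Pln, phospholamban, the brake on the calcium pump that PKA releases, was at 2467 to 3167 in BALB/cByJ and 1680 to 2425 in BALB/cJ (0.40, limma adjusted p = 0.231). Kcne1, a subunit of the slow delayed rectifier, was at 86.94 to 104.02 against 58.56 to 77.25 (0.44, limma adjusted p = 0.0699). Ppp1r1a, an inhibitor of protein phosphatase 1, was at 7.40 to 8.33 against 10.38 to 11.98 (-0.43, limma adjusted p = 0.057, and 0.0493 over genes with a mean of at least 2). Hspb6, a small heat shock protein, was at 84.38 to 91.57 against 108.43 to 183.42 (-0.53, limma adjusted p = 0.0944).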

How the data were processed

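RNA-Seq libraries of P4 ventricle pools, 3 from BALB/cByJ and 4 from BALB/cJ, were grouped by their titles. BGI Genomics prepared and sequenced the libraries and, per the study, also evaluated differential expression. The authors aligned and counted reads, normalized them for depth and length to an expression signal (FPKM or TPM) and deposited these values for 17404 genes per library, with tools and strand settings not given in the sources used here. Their build, per the submitters' processing notes, was mm10. Depth is unknown, so no counting interval is given and precision rests on the spread between pools. RefSeq on GRCm38, matched through gene IDs (17289 genes), gave symbols and coordinates.

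Values were taken as log2(value + 1). Genes whose mean over the 7 libraries reached 0.5 (12715) entered a limma fit (limma 3.58.1, R 4.3.3) of strain alone, with a variance trend. P-values are two-sided and Benjamini-Hochberg adjusted over all genes tested, and called means an adjusted p under 0.05. The code was tested on simulated data. Summaries used pandas 2.3.3 and numpy 2.4.6 under Python 3.11.15, and plots matplotlib 3.10.9.

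The 9 genes and the lists were chosen with earlier results of these data known. Named are the 9 genes, of each list the called genes and up to 4 with the smallest p, the 2 genes most like each gene compared, and genes that check labels and markers. Alternatives were a pseudocount of 0.1, no filter, a minimum mean of 2, quantile normalization, scaling by trimmed means (TMM), the replicate number as a block, the 6 libraries with shared numbers, the Y-linked level as covariate, no variance trend, and leaving out each library. The ratio of Adra1b to Adra1a was not formed, since Adra1a was under 0.5. Shares of alpha-1 receptors and the genes near each gene were added after the data were seen. Of the listed pathway genes, 4 (among them Chrm5 and Chat) were not analysed here.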

Additional observations from a re-analysis of the deposited data

Results flagged for a closer look

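In the 4 BALB/cJ libraries, 61 sets of values (the 9 genes, the genes named from the lists and 2 ratios) were checked for a library far from the others, and 8 had one by Dixon's criterion. Chance gives about 1 in 20, and the BALB/cByJ group of 3 was not checked. Adra1d was lowest in BALB/cJ 4, at 0.96, with the other libraries between 1.66 and 1.72. In BALB/cJ 4 too, Grk4 was highest at 9.95 (others 7.8 to 8), Rapgef3 highest at 9.15 (others 7.97 to 8.06) and Bche highest at 14.52 (others 12.21 to 12.39). BALB/cJ 1 held the lowest value of Gnb3, 0.66 (others 0.97 to 1.02), and the highest of Itpr3, 1.74 (others 1.39 to 1.44). BALB/cJ 2 held the lowest value of Pde8a, 8.15 (others 10.37 to 10.62), and the highest of Hspb6, 183.42 (others 108.43 to 119.49).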

How the results depend on the processing

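Read depth is unknown and 3 against 4 pools are few, so small differences and genes under 0.5 could not be resolved. None of the 9 genes was called under any of the 16 alternatives, Adcy6 stayed below 0 in all of them, and 103 of 111 values of the tested genes kept their direction. Against 98 genes higher and 112 lower in BALB/cByJ over all genes, there were 23 and 16 without a filter, 108 and 49 with quantile normalization, 140 and 58 with TMM scaling, and 25 and 21 with the Y-linked level as a covariate. In the pathway lists, against 3 higher and 2 lower, these settings gave 1 and 0, 3 and 0, 4 and 2, and 0 and 0. Leaving out 1 library gave 36 to 85 genes higher and 28 to 105 lower over all genes, and 1 to 4 higher and 0 to 2 lower in the lists, with BALB/cByJ 1 giving both lowest counts over all genes. The Y-linked level did not overlap between the strains, so the fit with that covariate is less precise for the strain difference. The cause of these shifts was not tested.

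Replicate numbers showed no sign of pairing the samples, although correlations among so few libraries cannot exclude a pairing. Deviations of libraries with the same number correlated at -0.214, -0.294 and -0.0302, and none of them correlated best with its own number. With the replicate number as a block in the 6 libraries that share numbers, 38 genes were higher and 20 lower over all genes, against 50 and 32 in these 6 without the block. In the lists 1 was higher and 0 lower with the block, and 1 and 1 without it. Adra1d was at -0.084 in both of these fits, with the replicate block and without, and Rapgef3 at 0.014.

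Values near 0 changed sign. Adrb1 was at 0.077 with quantile normalization and 0.059 with TMM scaling, and between -0.086 and 0.059 when 1 library was left out. Adra1d ranged from -0.13 to 0.14 when 1 library was left out. With quantile normalization and TMM scaling, Adcy9 was at 0.037 and 0.013, Rapgef3 at 0.071 and 0.046, and Slc44a1 at 0.053 and 0.060. Kcnj5 was at 0.0033 with TMM scaling, and Pkia at -0.059 with the Y-linked covariate. When 1 library was left out, Cap2 ranged from -0.0084 to 0.11, Rapgef3 from -0.074 to 0.022, Kcnj5 from -0.12 to 0.0068, Ache from -0.045 to 0.10 and Slc44a1 from -0.044 to 0.0029.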

Other observations

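Genes near the 9 genes were counted on mm10, within 1 Mb on either side. Around Adcy6 on chromosome 15, 2 of 35 tested genes were called, Aqp6, a water channel gene, at 6.06 in BALB/cByJ and 2.60 in BALB/cJ (log2 fold change 0.99), and Troap, a mitotic spindle gene, at 4.47 and 7.25 (-0.61). Around Grk5 on chromosome 19, 1 of 10 tested genes was called, Csf2ra, a subunit of the receptor for the growth factor GM-CSF, at 5.19 and 3.19 (0.57). Around the 7 other genes, 0 tested genes within 1 Mb were called by limma. For comparison, the called share of the whole set of 12715 genes was 1.65%. Whether calls gather near any of the 9 genes was not tested. The study also listed Aqp6 as differing, from these same libraries, so this call adds no independent evidence.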
